A study of Arabidopsis thaliana with 27 samples.

Results

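Small RNAs of xpf-3 hypocotyls were compared with those of wild-type hypocotyls after the lower of the study's UV-B doses. The members are the 6 libraries, of 27 in the series, that the labels place at 3000 µmol per square metre UV-B in these genotypes: xpf-3 replicates I, II and III, and wild type (WT, Columbia-0) replicates I, II and III. All 6 are etiolated hypocotyl, the stem of Arabidopsis thaliana seedlings raised without light. The growth protocol gives 2.5 days of absolute darkness, on filter paper wetted with 0.5x MS medium and 100 µM of the gibberellin GA4, before the exposure. Both genotypes therefore carry the same hormone treatment and darkness, and both were returned to the dark after UV-B. The hypocotyls were cut 6 hours after the exposure according to the extraction protocol, whereas the series title speaks of 2 days. The remaining libraries are the same genotypes in the dark or after 30000 µmol per square metre, and the UV-B receptor mutant uvr8-6.

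XPF is a subunit of the endonuclease that cuts the damaged strand in nucleotide excision repair, the pathway that removes UV photoproducts when photolyases, which need light, are not active. Plant miRNAs are cut from hairpin transcripts by DCL1 and are loaded into AGO1, where their 5′ seed region pairs with target mRNAs. MiR408 and miR398 are best known for their rise under copper shortage through the transcription factor SPL7, miR399 for phosphate shortage, and miR396, miR156, miR160 and miR390 for limits on growth regulators, SPL factors and auxin response factors. The XPF transcript was not measured and no defining marker of the hypocotyl is a small RNA, so neither the genotype nor the tissue label was checked against its own gene. MiRNA families known mainly from other organs (miR172, miR394, miR824 and miR845) had 3 of 10 loci tested, with summed levels of 11510 to 13470 CPM in xpf-3 and 10030 to 14040 CPM in WT (CPM, counts of a locus relative to the miRNA counts of its library and scaled by TMM).

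The mature miRNAs on which the comparison turns are shown here because several share a sequence with other loci, so that the reads of these loci may not be separable. Sequences are those of RefSeq (assembly TAIR10.1), written 5′ to 3′, with the seed (bases 2 to 8) in capitals.
miR408-3p: aUGCACUGccucuucccuggc
miR398b-3p: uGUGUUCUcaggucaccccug
miR399b: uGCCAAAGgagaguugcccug
miR8175: gAUCCCCGgcaacggcgcca
miR390a-5p: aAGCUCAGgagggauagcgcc
miR160a-5p: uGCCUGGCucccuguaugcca
miR396a-5p: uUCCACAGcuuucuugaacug
miR396b-5p: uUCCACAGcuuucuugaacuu
miR171b-3p: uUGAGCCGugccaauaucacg
miR156e: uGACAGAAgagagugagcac

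MiR396a-5p and miR396b-5p share their seed and differ by the substitution G21U, counted from 1 at the 5′ end of miR396a-5p. The mature sequence of MIR171B was also annotated at MIR171C, that of MIR390A at MIR390B, that of MIR399B at MIR399C and that of miR398b-3p at MIR398C. That of MIR160A was shared by 3 loci (MIR160A to MIR160C), that of MIR156E by 6 (MIR156A to MIR156F) and that of MIR166B, not shown, by 7 (MIR166A to MIR166G). MiR408-3p was found at 1 locus. The miR8175 sequence is also the 3′ end, once a CCA tail is added, of 22 nuclear tRNA-Asp genes, so counts at this locus may be fragments of tRNA-Asp. A locus count may hold other fragments of its hairpin besides the mature arm, since how reads were counted is not given.

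The files gave 2071 small RNA loci, of which 323 were miRNA loci. Library totals were 1116743, 1779421 and 1161724 counts in xpf-3 replicates I, II and III, and 1203847, 1135287 and 962976 in WT. MiRNA counts made up 43681, 43218 and 30511 of these in xpf-3 and 62134, 42559 and 40763 in WT, so that single miRNA loci with few counts are imprecise. No 2 libraries of a group were near-identical, since their miRNA counts differed by a chi-square of 13.1 to 25.4 per degree of freedom. Nothing in the labels states that the replicates were grown apart, so the p-values reflect the scatter among these libraries, part or all of which could be technical. Because the tissue was sampled in bulk, fewer cells of a type and less RNA per cell cannot be told apart.

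At the level of single loci, no miRNA passed the test between the genotypes. edgeR's quasi-likelihood test, fitted on all 27 libraries, called 0 of 101 tested miRNAs (0%) at a Benjamini-Hochberg adjusted p under 0.05. At an unadjusted p under 0.05 there were 9, of which 6 had higher and 3 had lower values in xpf-3, and DESeq2 called 3. The DESeq2 calls were MIR8175, with a higher value, and MIR396A and MIR171B, with lower values. Libraries of the genotypes did not overlap for 8 miRNAs above WT (7.92% of those tested) and 9 below it (8.91%). The median log2 difference over the 101 miRNAs was 0.03, with 55 values above 0, 42 below it and 4 loci without a count in any of the 6 libraries. Log2 differences are xpf-3 minus WT with their standard error.

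The loci with the smallest p and higher values were led by MIR8175 (AT2G05455), whose mature sequence is given above. It stood at 65381, 80758 and 87299 CPM in xpf-3 and at 31554, 31742 and 31122 CPM in WT. The 3 xpf-3 libraries lay above all WT libraries, and the WT libraries lay close together. The log2 difference was 1.31 ± 0.33 (edgeR adjusted p = 0.0776). The nuclear tRNA-Asp loci summed over copies had 2674, 3383 and 1664 counts in xpf-3 and 3485, 3109 and 2103 in WT, a log2 difference of −0.38 ± 0.21 (edgeR adjusted p = 0.669). That value is scaled to all small RNAs, on which scale MIR8175 stood at 0.77 ± 0.40 (edgeR adjusted p = 0.25). The share of MIR8175 counts that came from tRNA fragments was not tested.

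MIR408 (AT2G47015), whose miRNA limits copper proteins such as plantacyanin and laccases, had 673, 460 and 1141 CPM in xpf-3 and 350, 215 and 147 CPM in WT. Every xpf-3 library was above every WT library, although the counts behind these levels were 30, 19 and 30 in xpf-3 and 22, 9 and 6 in WT. The log2 difference was 1.63 ± 0.51 (edgeR adjusted p = 0.102). MIR399B (AT1G63005), a source of miR399, which targets the phosphate-starvation regulator PHO2, had 3589, 4984 and 5592 CPM in xpf-3 and 2022, 2818 and 3343 CPM in WT. Its groups did not overlap, but the lowest xpf-3 library lay close to the highest WT library, with a log2 difference of 0.79 ± 0.32 (edgeR adjusted p = 0.318).

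MIR390A (AT2G38325) is a source of miR390, which starts the production of TAS3 small RNAs against auxin response factors. It had 5540, 4815 and 4869 CPM in xpf-3 and 3869, 3368 and 2704 CPM in WT, again with no overlap, and a log2 difference of 0.61 ± 0.22 (edgeR adjusted p = 0.244). MIR390B (AT5G58465), which gives the same mature miRNA, had a log2 difference of −0.22 ± 0.17 (edgeR adjusted p = 0.72), with overlapping groups. MIR8180 (AT2G04935) had 11, 5 and 0 counts in xpf-3 and 0, 2 and 0 in WT, a ratio of 10.4 with a 95% exact interval of 2.44 to 92.9 that covers counting error only, and its groups overlapped.

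Among the loci with lower values, MIR396A (AT2G10606) was the most abundant. MiR396 targets GRF transcription factors, which drive cell proliferation. Its levels were 40305, 57193 and 50858 CPM in xpf-3 and 73902, 87392 and 97546 CPM in WT. All xpf-3 libraries were below all WT libraries, and the log2 difference was −0.80 ± 0.25 (edgeR adjusted p = 0.102). MIR396B (AT5G35407), which differs in the last base of its mature miRNA, had 7289, 8734 and 5934 CPM in xpf-3 and 7276, 9100 and 8629 CPM in WT. These groups overlapped, and the log2 difference was −0.18 ± 0.32 (edgeR adjusted p = 0.881).

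MIR171B (AT1G11735) gives a miRNA that targets HAM-type GRAS transcription factors of the meristem. It was a rare locus with 2, 5 and 7 counts in xpf-3 and 20, 24 and 23 in WT, or 44.9, 121 and 266 CPM in xpf-3 and 318, 573 and 565 CPM in WT. The groups did not overlap, and the log2 difference was −1.80 ± 0.54 (edgeR adjusted p = 0.102). Without xpf-3 replicate III it was −2.45 and passed the test (edgeR adjusted p = 0.0485), but it did not pass with any other library left out. Over all alternative settings it ranged from −2.45 to −1.33 (edgeR or DESeq2 adjusted p up to 0.333). MIR171C (AT1G62035), with the same mature sequence, had 8, 7 and 3 counts in xpf-3 and 17, 6 and 3 in WT, with overlap, and MIR171A (AT3G51375) had a log2 difference of 0.23 ± 0.28 (edgeR adjusted p = 0.83).

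MIR156E (AT5G11977), a source of the SPL-targeting miR156 that delays the change from juvenile to adult growth, had 6661, 5758 and 5896 CPM in xpf-3 and 9218, 10820 and 8702 CPM in WT. Its groups did not overlap, and the log2 difference was −0.65 ± 0.26 (edgeR adjusted p = 0.318). MIR166B (AT3G61897), a source of miR166 against HD-ZIP III factors of leaf and vascular patterning, had 4262, 3218 and 4298 CPM in xpf-3 and 5270, 11011 and 9809 CPM in WT. Here too the groups were apart, with WT replicate I much nearer to xpf-3 than its 2 fellow libraries, and the log2 difference was −1.15 ± 0.60 (edgeR adjusted p = 0.468). MIR166A, with the same mature sequence, had 23281, 16331 and 21568 CPM in xpf-3 and 22050, 19298 and 23231 CPM in WT, with overlap. Summed over its family, MIR166 stood at −0.19 ± 0.17 (edgeR adjusted p = 0.531), also with overlap. MIR162A (AT5G08185) had a log2 difference of −0.46 ± 0.24 (edgeR adjusted p = 0.468), with overlap.

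**Figure D1:**
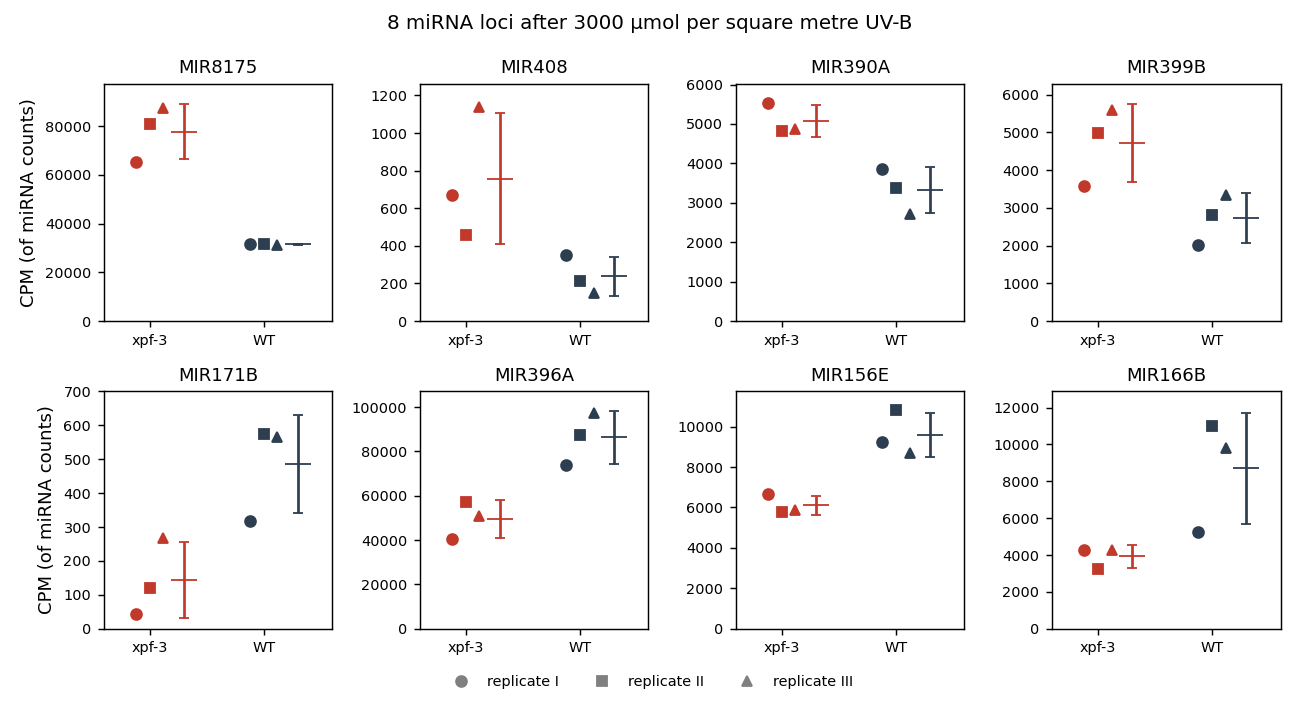
Levels of 8 miRNA loci in the 6 libraries, in CPM of miRNA counts on linear axes that start at 0, with xpf-3 left of WT; symbols mark replicates and the bars beside them give mean and SD (n = 3). The xpf-3 libraries lie above the WT libraries in the top row, at 65381 to 87299 against 31122 to 31742 CPM for MIR8175, and below them in the bottom row.

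None of the 10 most abundant miRNA loci, ranked by counts and not per length, passed the test. MIR169C (AT5G39635) held 13.6% of miRNA counts on average over the 6 libraries, MIR158A (AT3G10745) 11.6% and MIR169A (AT3G13405) 9.69%. Their log2 differences were 0.24 ± 0.26, −0.01 ± 0.28 and 0.43 ± 0.36, and the groups overlapped for each. MIR396A and MIR8175, described above, held 6.63% and 5.22%. MIR822A (AT5G03552) held 5.28%, with 43580, 54290 and 53140 CPM in xpf-3 and 58810, 55268 and 61040 CPM in WT. Its xpf-3 libraries were all lower, by a small margin, and the log2 difference was −0.21 ± 0.21 (edgeR adjusted p = 0.744). MIR169B (AT5G24825), MIR156C (AT4G31877), MIR156F (AT5G26147) and MIR156A (AT2G25095) completed the 10, with log2 differences of 0.26 ± 0.39, 0.14 ± 0.17, −0.44 ± 0.25 and 0.08 ± 0.20 and overlapping groups.

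MiRNAs that regulate the silencing machinery itself had values on both sides of 0, with a median log2 difference of 0.01. MIR168A (AT4G19395), the main source of miR168 against AGO1, had 29158, 26081 and 28034 CPM in xpf-3 and 24119, 30500 and 28148 CPM in WT, a log2 difference of 0.01 ± 0.17. MIR168B (AT5G45307) stood at 0.44 ± 0.68. MIR162B (AT5G23065), whose miRNA targets DCL1, stood at 0.01 ± 0.31. MIR403 (AT2G47275), whose miRNA targets AGO2, had 920, 968 and 837 CPM in xpf-3 and 1401, 1242 and 1254 CPM in WT, with no overlap and a log2 difference of −0.51 ± 0.28 (edgeR adjusted p = 0.468). With MIR162A, described above, 3 of the 5 loci had higher and 2 had lower values, and 0 passed the test.

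The miRNAs were also described by target group. The auxin list (miR160, miR164, miR167, miR390 and miR393) had 13 of 14 loci tested and a median log2 difference of −0.10, with 6 values higher and 7 lower, against 0.03 over all 101. In it, MIR160A (AT2G39175) was at 0.62 ± 0.28, MIR160C (AT5G46845) at −0.16 ± 0.16, MIR167A (AT3G22886) at 0.52 ± 0.57 and MIR167D (AT1G31173) at −0.10 ± 0.31. The SPL and AP2 list (miR156, miR157 and miR172) had 12 of 19 loci tested, a median of −0.06 and 5 values higher and 7 lower. HD-ZIP III (miR165 and miR166) had 7 of 9 tested, a median of 0.19 and 4 higher and 3 lower.

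The list of growth regulators (miR159, miR319, miR396, miR170 and miR171, which target GAMYB, TCP, GRF and GRAS factors) had all 12 loci tested, 3 with higher and 9 with lower values, and a median of −0.11. Its summed level was 122100 to 138000 CPM in xpf-3 and 155400 to 174000 CPM in WT, so the sums did not overlap. This gap lay largely in 1 locus, MIR396A, which alone stood at 40305 to 57193 CPM in xpf-3 and 73902 to 97546 CPM in WT. The next most abundant locus of the list, MIR171A, overlapped, at 22709 to 34855 CPM in xpf-3 and 18487 to 26587 CPM in WT. The NF-Y list (miR169, which targets NF-YA factors) had 14 of 14 tested, 9 higher, 3 lower and 2 without counts in the 6 libraries, with a median of 0.29. Scaled to all small RNAs, 2 of its 14 loci were higher and its median was −0.16. Its sums were 285700 to 454100 CPM in xpf-3, the highest in replicate III, and 275400 to 292300 CPM in WT. The nutrient and copper list had only 3 of 23 loci tested, MIR408, MIR399B and MIR399C, all with higher values and a median of 0.79 (scaled to all small RNAs, 2 of 3 higher, with MIR399C at −0.05, and a median of 0.26), and sums of 4374 to 7075 CPM in xpf-3 and 2643 to 3614 CPM in WT. Triggers of secondary small RNAs (miR161, miR173, miR390, miR400 and miR472) had 6 of 7 tested and a median of 0.21. The families predicted by others to be UV-B induced, 51 of 65 loci tested, had a median of 0 with 25 higher and 24 lower. Families shared among flowering plants had 66 of 97 tested and a median near 0, with 33 higher and 31 lower, and the remaining 35 tested loci a median of 0.08 with 22 higher and 11 lower. No locus of any list passed the test.

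**Figure D2:**
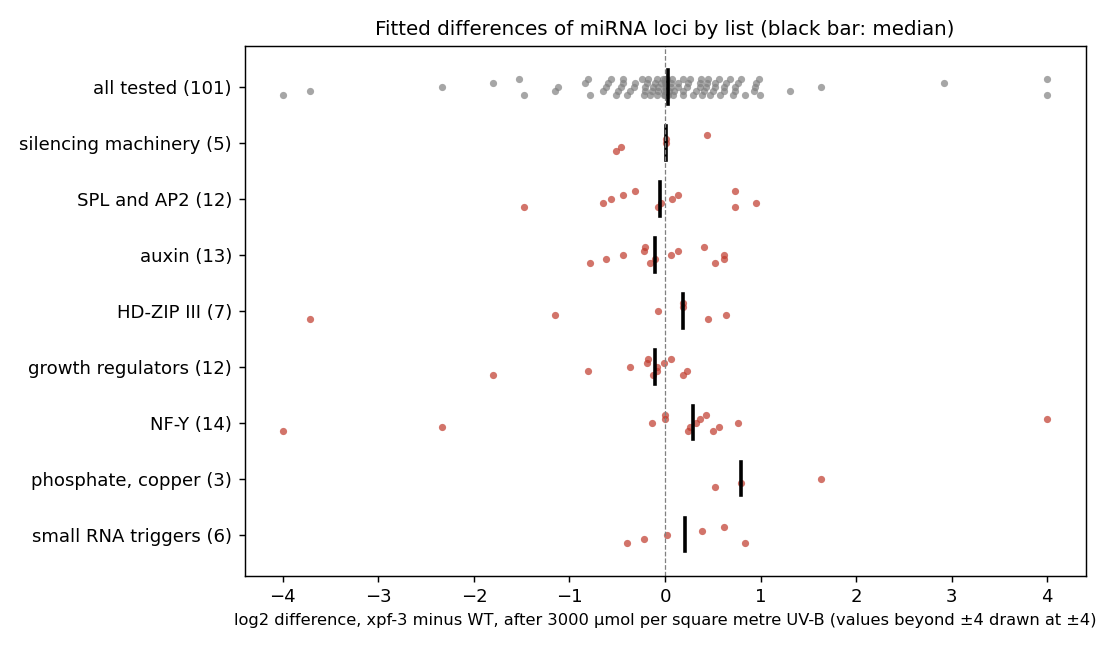
Fitted log2 differences (xpf-3 minus WT) of single miRNA loci, 1 point a locus, for all tested miRNAs and 8 lists by target group, with the number tested in brackets and black bars for medians. The phosphate and copper points all lie right of 0 (median 0.79), 9 of the 12 growth regulators lie left of it, and the other lists straddle it.

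Counts summed by family, so that loci with a shared mature sequence fall together, gave 1 call. MIR8175, a family of 1 locus, was higher in xpf-3 by 1.31 ± 0.34 (edgeR adjusted p = 0.0387), 1 of 55 families tested (1.82%). Its counts are those of the locus, which did not pass among 101 miRNAs (edgeR adjusted p = 0.0776), so summing joined no loci here. With unnamed loci kept single this family was not called. At an unadjusted p under 0.05 there were 11 families, and DESeq2 called 3. Libraries did not overlap for 10 families above WT (18.2%) and 4 below it (7.27%). The call was lost without any 1 of the 6 libraries (adjusted p = 0.11 to 0.192 by edgeR), with a minimum count of 30 (1.09, edgeR adjusted p = 0.0537) and when scaled to all small RNAs (0.77, edgeR adjusted p = 0.138). In both of these last settings the 1 family called was MIR396, with a lower value in xpf-3 (edgeR adjusted p = 0.00535 and 0.0175). The next families just missed the threshold: MIR396 at −0.75 ± 0.21 (edgeR adjusted p = 0.0507) and MIR408 at 1.58 ± 0.48 (edgeR adjusted p = 0.0535). DESeq2 called both of these. Without xpf-3 replicate II both passed in edgeR (adjusted p = 0.0458 for MIR396 and 0.0487 for MIR408), and without WT replicate I MIR396 passed (0.0355).

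The family MIR398, whose miRNA targets the copper and zinc superoxide dismutases CSD1 and CSD2, had 12, 6 and 12 counts in xpf-3 and 8, 1 and 3 in WT over its loci MIR398A, MIR398B and MIR398C, none of which was tested alone. In CPM these counts were 253, 137 and 493 in xpf-3 and 125, 24.1 and 72.7 in WT, with no overlap. The log2 difference was 1.74 ± 0.60 (edgeR adjusted p = 0.0996). MIR399 stood at 0.77 ± 0.27 (edgeR adjusted p = 0.0996) and MIR8180, with the counts given above, had the fifth smallest p among higher values. Lower values were found for MIR403 at −0.53 ± 0.25, MIR829 at −0.61 ± 0.28, MIR854 at −1.67 ± 0.80 and MIR163 at −0.86 ± 0.57, all with an edgeR adjusted p of 0.237 or more.

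The mean share of miRNAs was lower in xpf-3 libraries, and the exact test did not pass. MiRNA loci held 3.91, 2.43 and 2.63% of counts in xpf-3 and 5.16, 3.75 and 4.23% in WT, or 2.99 ± 0.81% and 4.38 ± 0.72% (SD, n = 3 each; exact two-sided permutation p = 0.2). The ranges overlapped through xpf-3 replicate I and WT replicate II. Of counts other than rRNA, miRNAs held 15.6, 12.3 and 14.4% in xpf-3 and 20.9, 17.4 and 16.7% in WT, which did not overlap. Scaled to all small RNAs instead of to miRNAs, the median miRNA difference moved by −0.51 on the log2 scale and 23 of the 101 miRNAs had a higher value in xpf-3. Read against that shift, MIR396A then stood at −1.34 ± 0.33 (edgeR adjusted p = 0.0481), the 1 call on this scale, and MIR408 at 1.10 ± 0.57, MIR8175 at 0.77 ± 0.40 and MIR390A at 0.12 ± 0.31.

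Of the other small RNA classes, only snRNA had shares of all counts that did not overlap between the genotypes. The snRNA loci held 3.38, 2.92 and 2.85% of counts in xpf-3 and 3.72, 3.42 and 3.46% in WT (exact two-sided permutation p = 0.1, the smallest that 20 arrangements allow, and 0.5 after adjustment over 5 classes). Of counts other than rRNA they held 13.5, 14.8 and 15.6% in xpf-3 and 15.1, 15.8 and 13.6% in WT, which overlapped. The rRNA loci held 79.0 ± 3.6% in xpf-3 and 76.1 ± 2.0% in WT (SD, n = 3 each; exact permutation p = 0.3). The snoRNA loci held 4.05 ± 0.28% in xpf-3 and 4.07 ± 0.46% in WT (SD, n = 3 each; exact permutation p = 1.0). The tRNA loci held 10.9 ± 2.3% in xpf-3 and 11.9 ± 1.8% in WT (SD, n = 3 each; exact permutation p = 0.6).

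**Figure D3:**
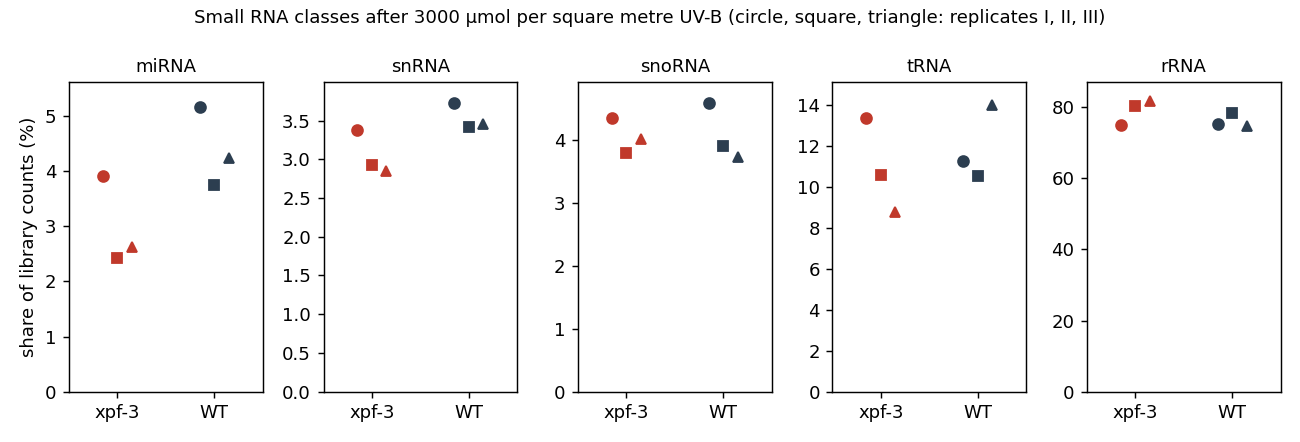
Share of library counts, in percent, held by miRNA, snRNA, snoRNA, tRNA and rRNA loci in each library, with xpf-3 left of WT and axes that start at 0. The snRNA shares of xpf-3 (2.85 to 3.38%) lie below those of WT (3.42 to 3.72%), while the other classes overlap on this scale.

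Over all small RNA loci, edgeR called 0 of 1109 (0%), with 65 at an unadjusted p under 0.05 (26 higher, 39 lower) and 26 calls by DESeq2. The DESeq2 calls were MIR396A and MIR171B, with lower values, and otherwise single tRNA, 5S rRNA and snRNA copies. These copies had log2 values of 17.1 or more in size, in both directions, and are of the kind described below. Libraries did not overlap for 57 loci above WT (5.14%) and 76 below it (6.85%). By class, 13 of 318 snoRNA loci had an unadjusted p under 0.05, all with higher values, and 17 of 101 miRNA loci, all with lower values on this scale. For tRNA it was 25 of 481 in a split of 8 higher and 17 lower, for rRNA 7 of 112 and for snRNA 3 of 97. The snoRNAs guide chemical changes of rRNA. AT1G07593 had 68, 121 and 63 counts in xpf-3 and 57, 27 and 32 in WT, a log2 difference of 0.97 ± 0.32 (edgeR adjusted p = 0.765). SNORD14 (ENSRNA049493731) and AT4G39363 had the same counts in each of the 6 libraries, 260, 410 and 234 of them in xpf-3, so they are 1 measurement here, at 0.47 ± 0.18. AT2G07605 stood at 0.39 ± 0.16. Among the lower values, the tRNA locus AT4G12115 had 37, 60 and 49 counts in xpf-3 and 90, 147 and 92 in WT, at −1.31 ± 0.45. A tRNA-Val locus (ENSRNA049492609) stood at −1.28 ± 0.46 and a U2 snRNA locus (ENSRNA049494583), part of the spliceosome, at −0.29 ± 0.11, each with an edgeR adjusted p of 0.765.

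Single copies of repeated genes were at 0 in some libraries and well covered in others. A tRNA-Ala copy (ENSRNA049492414) had 260, 351 and 210 counts in xpf-3 and 0, 0 and 0 in WT. A 5S rRNA copy (ENSRNA049494629) had 115, 130 and 181 counts in xpf-3 and 0, 0 and 0 in WT, and another 5S copy (ENSRNA049493451) had 2, 1 and 1 counts in xpf-3 and 38, 21 and 37 in WT. In the opposite direction, the tRNA-Ala copy AT5G55505 had 0, 0 and 0 counts in xpf-3 and 289, 440 and 587 in WT. Within the 6 libraries these copies separated the genotypes. Elsewhere in the series, both tRNA-Ala copies and the 5S copy ENSRNA049494629 were covered in some and at 0 in other libraries of 1 group. In the dark, this 5S copy had 91, 0 and 155 counts in xpf-3 and 1, 1 and 2 in WT. Also in the dark, ENSRNA049492414 had 316, 0 and 0 counts in xpf-3 and 0, 271 and 2 in WT, and AT5G55505 had 625, 0 and 312 counts in xpf-3 and 0, 0 and 0 in WT.

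In all, 80 loci had a library at 0 and another at 100 or more counts among the 6, of which 68 were tRNA, 6 rRNA, 6 snRNA and 0 snoRNA or miRNA loci. Few miRNA loci have enough counts to reach that cut, so it does not show that they are free of such switching. Below the cut, MIR169K had 0, 895 and 0 CPM of miRNA counts in xpf-3 and 589, 0 and 0 CPM in WT. MIR157B had 920, 653 and 1179 CPM in xpf-3 and 892, 0 and 737 CPM in WT. A tRNA-Asp copy (ENSRNA049492385) rested on 1 library, with 0, 0 and 0 counts in xpf-3 and 0, 124 and 0 in WT. When copies were summed, no group of copies was at 0 in 1 library and at 100 or more in another. All nuclear tRNA-Ala copies together had 91043, 117004 and 60716 counts in xpf-3 and 76085, 67604 and 82238 in WT, a log2 difference of −0.01 ± 0.36 (edgeR adjusted p = 0.995). The nuclear 5S copies together stood at −0.12 ± 0.27 (edgeR adjusted p = 0.986). After summing, edgeR called 0 of 433 small RNA groups (0%), with 36 at an unadjusted p under 0.05 (11 higher, 25 lower), and DESeq2 called 1, the family MIR396. Libraries did not overlap for 25 groups above WT (5.77%) and 41 below it (9.47%).

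**Figure D4:**
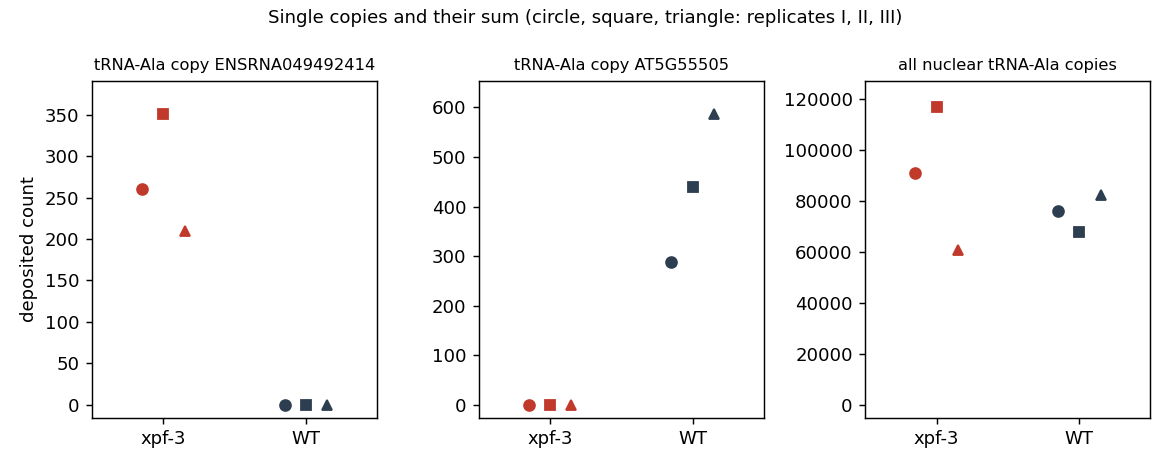
Deposited counts of 2 tRNA-Ala copies and of all nuclear tRNA-Ala copies summed, by library, on linear axes with xpf-3 left of WT. The single copies are at 0 in all 3 libraries of 1 genotype and at 210 to 587 in the other, whereas the sums overlap at 60716 to 117004 in xpf-3 and 67604 to 82238 in WT.

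Whether the genotype difference at 3000 µmol per square metre departs from that in the dark was tested as an interaction. The edgeR test called 0 of 101 miRNAs (0%) and DESeq2 likewise 0, and 4 had an unadjusted p under 0.05. The 4 were MIR160A, with a difference of differences of 1.07 ± 0.40, MIR167A at 1.75 ± 0.83, MIR396A at −0.85 ± 0.35 and MIR171B at −1.71 ± 0.72, each with an edgeR adjusted p of 0.814. The xpf-3 minus WT difference of MIR396A was 0.04 ± 0.25 in the dark, −0.80 ± 0.25 at 3000 and −0.38 ± 0.25 at 30000. Over all small RNA loci the same interaction gave 0 calls of 1109 in edgeR (0%) against 21 in DESeq2, and 53 loci had an unadjusted p under 0.05. The DESeq2 calls were all single tRNA, 5S rRNA or snRNA copies.

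Against the higher dose, 3 of 101 miRNAs (2.97%) differed in their genotype difference, each with an edgeR adjusted p of 0.0452. Summed by family, where loci with a shared mature sequence fall together, edgeR called 0 of 55 (0%) in this interaction. Over all small RNA loci it called 0 of 1109 (0%). MIR160A stood at 1.56 ± 0.40: its CPM at 3000 were 3858, 4427 and 6390 in xpf-3 and 2738, 4442 and 2335 in WT, whereas at 30000 they were 3932, 2532 and 2516 in xpf-3 and 7263, 4116 and 5936 in WT. The groups overlapped at the lower dose and were apart, with xpf-3 lower, at the higher one. MIR171B stood at −2.84 ± 0.77, with 2, 5 and 7 counts in xpf-3 and 20, 24 and 23 in WT at 3000, and 7, 18 and 11 counts in xpf-3 and 3, 8 and 2 in WT at 30000. MIR169N (AT3G26819) had 4, 0 and 0 counts in xpf-3 and 14, 0 and 13 in WT at 3000, and 35, 28 and 8 counts in xpf-3 and 0, 0 and 0 in WT at 30000, so no fold is given. In the dark MIR169N had 267, 0 and 279 CPM in xpf-3 and 387, 422 and 475 CPM in WT. It was thus at 0 in some and covered in other libraries of 1 group, like the single tRNA and 5S copies. Whether this underlies its call was not tested. Without the low-count filter, with the 12 libraries compared alone or scaled to all small RNAs, none of the 3 was called, and with a minimum count of 30 only MIR160A was. Without xpf-3 replicate II, WT replicate I or WT replicate III at 3000 none of the 3 was called, and without xpf-3 replicate III only MIR171B was.

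MIR408 had higher values in xpf-3 at every dose. In the dark it had 329, 603 and 498 CPM in xpf-3 and 265, 127 and 112 CPM in WT, and at 30000 it had 695, 400 and 334 CPM in xpf-3 and 82.1, 199 and 126 CPM in WT. At each dose the genotypes did not overlap. The log2 differences were 1.48 ± 0.52 in the dark, 1.63 ± 0.51 at 3000 and 1.72 ± 0.54 at 30000, and none passed the test at its own dose (edgeR adjusted p = 0.445, 0.102 and 0.154). Averaged over the 3 doses, with 9 libraries a genotype, MIR408 was higher in xpf-3 by 1.61 ± 0.30 (edgeR adjusted p = 0.00248), 1 of 2 calls among 101 miRNAs (1.98%). Its difference at 3000 departed from that in the dark by 0.15 ± 0.74 and from that at 30000 by −0.09 ± 0.68. This average was chosen after the values at 3000 were seen, and it holds them. Scaled to all small RNAs it was 1.32 ± 0.34, with an edgeR adjusted p of 0.0635.

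The other call of that average was MIR8175, higher in xpf-3 by 0.82 ± 0.19 (edgeR adjusted p = 0.0157). Its level in the dark was 21548, 57144 and 40985 CPM in xpf-3 and 18830, 41485 and 24804 CPM in WT, which overlapped, and at 30000 it was 58118, 47945 and 54616 CPM in xpf-3 and 24375, 40631 and 36560 CPM in WT, which did not. Scaled to all small RNAs the call was lost (0.46, edgeR adjusted p = 0.302), as it was without 4 of the 6 libraries in turn (xpf-3 replicate II or any WT replicate).

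Summed by family, the average over doses gave 4 calls of 55 (7.27%). MIR408 was higher by 1.49 ± 0.30 (edgeR adjusted p = 0.00228), MIR398 by 1.44 ± 0.36 (edgeR adjusted p = 0.0128) and MIR8175 by 0.74 ± 0.19 (edgeR adjusted p = 0.0145), and MIR396 was lower, at −0.43 ± 0.12 (edgeR adjusted p = 0.0233). MIR398 rested on 27 counts in xpf-3 and 15 in WT in the dark, 30 in xpf-3 and 12 in WT at 3000, and 37 in xpf-3 and 7 in WT at 30000. Its log2 differences at these doses were 0.92 ± 0.59, 1.74 ± 0.60 and 1.66 ± 0.66. The call for MIR396 was lost with RLE size factors, without the low-count filter and without any 1 of the 6 libraries at 3000 (edgeR adjusted p = 0.126 to 0.299). Scaled to all small RNAs, MIR398 (1.22, edgeR adjusted p = 0.0752) and MIR8175 (0.46, edgeR adjusted p = 0.147) did not pass. MIR390A, at 0.40 ± 0.13 over the doses, did not pass at locus level (edgeR adjusted p = 0.184).

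**Figure D5:**
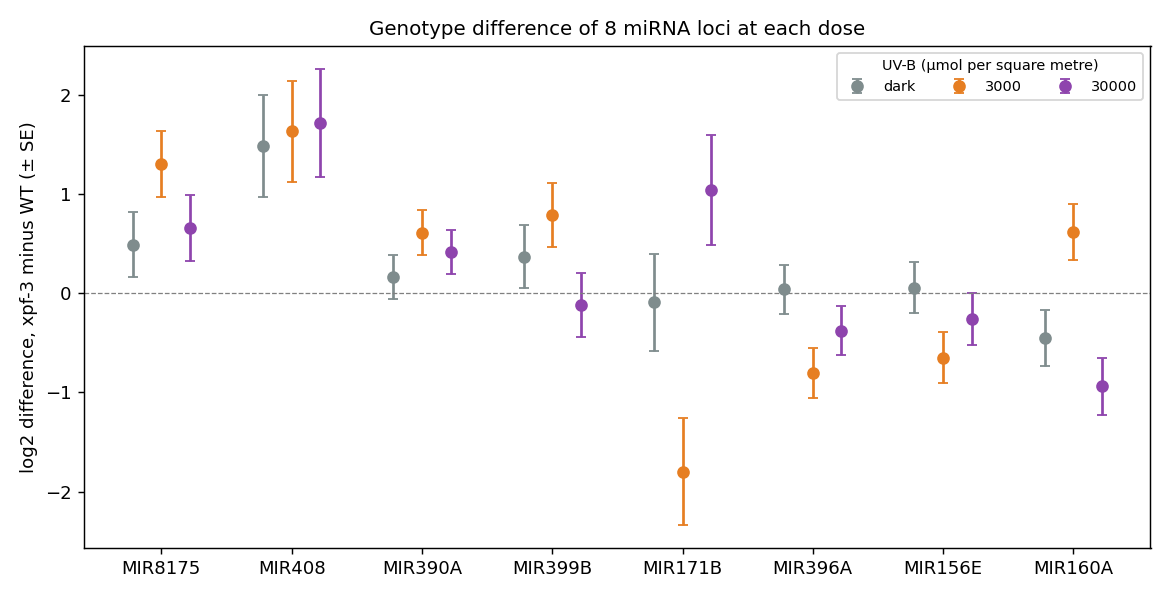
Log2 differences (xpf-3 minus WT, ± SE, n = 3 libraries a group) of 8 miRNA loci in the dark, at 3000 and at 30000 µmol per square metre UV-B. MIR408 lies near the same height at each dose (1.48, 1.63 and 1.72), and MIR396A is lowest at 3000 (−0.80). MIR171B, MIR160A and MIR399B change sign between the UV-B doses, MIR399B from 0.79 at 3000 to −0.12 at 30000.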

How the data were processed

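Small RNA libraries (Clontech SMARter kit, per the labels' protocols) were deposited by the authors as raw counts per locus. FastQC and cutadapt are named in the submitters' processing notes. How reads were aligned and counted, with which strand setting and on which build, is not given in the sources used here. Both deposited sheets held identical miRNA counts. Another 272 deposited columns were not used.

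Counts were tested with edgeR 4.0.16 in R 4.3.3 on all 27 libraries in 9 groups (TMM, filterByExpr minimum count 10, quasi-likelihood test, Benjamini-Hochberg over all features tested, threshold 0.05), with DESeq2 1.42.0 as an alternative. Class shares were compared by exact permutation over libraries. Unnamed miRNA loci (147) took their names from RefSeq by locus tag, and JAW was read as MIR319A after first results were seen. Families are sums over a family number. The fits were also run on simulated counts with set changes, which does not check them against the shift in miRNA share or the copies that switch to 0.

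Named are called miRNAs and families, the 5 with the smallest p a direction, the 10 most abundant miRNAs, miRNAs against the silencing machinery, loci that changed with the lower dose in earlier results, and mates of these families. Other small RNAs are the 5 with the smallest p a direction, and the 3 copies at 0 in 1 genotype. Members and lists were chosen with earlier results of these data known, and family mates, copy sums and averages over doses were added after values were seen. Same-numbered xpf-3 and WT libraries did not deviate together, so replicates were not paired. Alternatives were other scalings, filters, library sizes and left-out libraries.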

Additional observations from a re-analysis of the deposited data

Results flagged for a closer look

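The difference between xpf-3 and WT at 3000 µmol per square metre departed from that at 30000 for 3 miRNAs in edgeR's interaction test, which is what marks them for a closer look. MIR160A had an adjusted p of 0.0452, with a log2 difference (xpf-3 minus WT) of 0.62 ± 0.28 at 3000 and −0.94 ± 0.29 at 30000. MIR171B had an adjusted p of 0.0452, with −1.80 ± 0.54 at 3000 and 1.04 ± 0.55 at 30000. MIR169N had an adjusted p of 0.0452, with 4 counts in xpf-3 and 27 in WT at 3000, and 71 in xpf-3 and 0 in WT at 30000. DESeq2 called the same 3. In edgeR this interaction called 0 of 55 families and 0 of 1109 small RNA loci. None of the genotype differences passed the test at its own dose.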

How the results depend on the processing

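For miRNA loci at 3000, the 0 calls became 2 with RLE size factors or a minimum count of 30 (MIR8175 higher, MIR396A lower) and 3 with DESeq2. They became 1 with the compared groups alone or the replicate block (MIR8175 higher), and 1 with library sizes of all small RNAs (MIR396A lower). Leaving out 1 library gave 0 to 1. For families, 1 call became 2 with RLE size factors, 3 with DESeq2, 6 without the filter or with the compared groups alone and 0 with unnamed loci kept single, while with a minimum count of 30 or library sizes of all small RNAs the 1 call was MIR396 in place of MIR8175; leaving out 1 library gave 0 to 2. For all loci, 0 became 26 with DESeq2 (MIR396A, MIR171B and otherwise single copies of repeated genes) and 2 with the compared groups alone. Leaving out 1 library gave 0 to 1. For summed groups, 0 became 1 with DESeq2 and 2 with the compared groups alone. The interaction with the dark gave 21 loci by DESeq2, all single copies of repeated genes. That with 30000 fell to 0 calls without the filter, with the compared groups alone, the replicate block or library sizes of all small RNAs, and to 1 with a minimum count of 30; leaving out 1 library gave 0 to 2. Averaged over doses, 2 miRNAs became 1 with a minimum count of 30, 0 with library sizes of all small RNAs and 1 to 2 without 1 library; 4 families became 2 with a minimum count of 30. The replicate block was tried although the numbers do not pair the libraries (r = 0.0844, −0.0401 and 0.0447 for replicates I, II and III); not every sample correlated best with its own number.

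Shares of counts other than rRNA reversed for snoRNA (2.44 percentage points) and tRNA (1.92); leaving out 1 library gave −0.194 to 0.241 for snoRNA and −2.26 to 0.0369 for tRNA. Some log2 values that did not pass the test changed sign. With library sizes of all small RNAs these were MIR169C (−0.31), MIR169A (−0.0815), MIR169B (−0.30), MIR156C (−0.37), MIR156A (−0.44), MIR168B (−0.0525), MIR168A (−0.48), MIR162B (−0.50), MIR171A (−0.24) and MIR399C (−0.0518). MIR168A and MIR162B stood at −0.0394 and −0.0402 with RLE size factors, −0.0383 and −0.0403 with DESeq2 and −0.065 and −0.0746 without the filter, MIR162B at −0.00078 with the block, MIR156A at −0.0137 without the filter, and MIR158A at 0.0135 with a minimum count of 30 and 0.0085 with the compared groups alone. Leaving out 1 library gave −0.22 to 0.0662 for MIR168A, −0.28 to 0.0105 for MIR162B, −0.36 to 0.92 for MIR167A, −0.0682 to 0.40 for MIR171A, −0.12 to 0.24 for MIR156C, −0.19 to 0.16 for MIR156A, −0.15 to 0.84 for MIR168B, −0.26 to 0.95 for MIR399C, −0.32 to 0.19 for MIR158A, −0.16 to 0.56 for MIR169B, −0.51 to 0.0011 for MIR396B, −0.60 to 0.40 for MIR171C and −0.10 to 0.35 for MIR169C. The causes were not tested. Counts of under 100 a library limit MIR408, MIR398, MIR171B and MIR169N.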
